A study of Caenorhabditis elegans with 2 samples.

Results

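The RNA of the signal recognition particle (SRP), the RNA of RNase P and the RNA of RNase MRP are 3 non-coding RNAs other than tRNA that RNA polymerase III makes, and 5 of their genes carried strong peaks of the nucleolar protein DAO-5 in Caenorhabditis elegans. The 5 are the SRP RNA genes srpr-2.1, srpr-2.2 and srpr-1.2, the RNase P RNA gene rpr-1 and the RNase MRP RNA gene mrpr-1. The annotation held 7 genes of these kinds among 46890 nuclear genes, and the 5 were taken because each had a peak in the authors' thresholded list. Their presence in that list is therefore how they were chosen and is no result. The other two, srpr-1.1 and srpr-3, had peaks only in the longer lists and are set beside them.

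Binding was measured by ChIP-seq, in which the DNA bound to a protein is recovered with an antibody and located by sequencing. All samples were whole hermaphrodites of strain OP252 at the L4 or young adult stage, a line that stably carries DAO-5 with GFP and FLAG at its C-terminal end, and chromatin sheared with a sonicator was pulled down with an anti-GFP antibody. There was 1 group of 2 biological replicates, set against a possible control that the labels list for both, and no untagged or untreated group was analysed here. The signal of a whole animal mixes all of its tissues, and what was bound is the tagged transgene product rather than the native protein. A level of binding cannot be split here into the share of cells with binding and the amount per cell.

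SRP RNA is the scaffold of the particle that brings ribosomes making secreted and membrane proteins to the Sec61 channel of the endoplasmic reticulum. RNase P is the enzyme that trims the 5′ leader from tRNA precursors, and RNase MRP is its relative in the nucleolus, where it cuts the precursor of ribosomal RNA; each is built around its own RNA. The mammalian relative of DAO-5, Nopp140, resides in the nucleolus and in Cajal bodies, where it binds small nucleolar ribonucleoproteins. In vertebrates, RNase P, RNase MRP, Y and U6 RNA genes are read from a proximal sequence element and a TATA box upstream of the gene, while tRNA genes use boxes inside the gene.

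The authors deposited a list of peaks for each replicate (23091 for replicate 1 and 21273 for replicate 2), a list from pooled reads (16687) and a thresholded list of 549, the strongest pooled peaks. Each peak has a signal, the peak caller's own value for its height, which served here to rank peaks inside 1 list at a time. Signals of the 2 replicates are also set side by side below and used to find alike genes. Their scaling and depth are unknown, so this second use is a description only. Median signal was 11.5 in the replicate 1 list, 10.9 in the replicate 2 list, 21.3 in the pooled list and 65.6 in the thresholded list. The weakest thresholded peak and the strongest pooled peak left out of it both had a signal of 51.8. Nearly all peaks had 1 width per list (436 bp in replicate 1, 420 bp in replicate 2 and 430 bp in the pooled and thresholded lists), with the summit, the point of highest signal, at the middle. A peak was assigned to a gene when its summit lay within 200 bp of it.

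All 5 genes with a thresholded peak also had a peak in both replicate lists, and their summits lay inside the gene in the thresholded list. By the same distance rule, 1.8% of all nuclear genes and 1.97% of nuclear genes under 500 bp had a thresholded summit, and 22.8% and 10.5% had a pooled one. Since the genes were chosen from that list, nothing is read from this contrast. Pooled signal ran from 70.9 to 178 over the 5, with a median of 84.8. It was 34.2 at srpr-1.1 and 38.0 at srpr-3, below the threshold. The −log10 q deposited by the authors for the pooled peaks was 1.82 at each of the 5 genes, 1.00 at srpr-1.1 and 1.41 at srpr-3. The value of 1.82 was the same over pooled signals from 70.9 to 178, so it does not tell the 5 genes apart. Within the strongest 549 peaks of each replicate list, 4 of the 5 genes had a summit in replicate 1 (1.65% of all nuclear genes did). In replicate 2 it was also 4 of 5 (1.73% of all nuclear genes). The gene outside was mrpr-1 in replicate 1 and srpr-2.2 in replicate 2, and srpr-1.1 and srpr-3 were outside in both. The pooled list was made from the same replicates, so choosing from it favours these counts, and nothing is read from them.

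**Figure D1:**
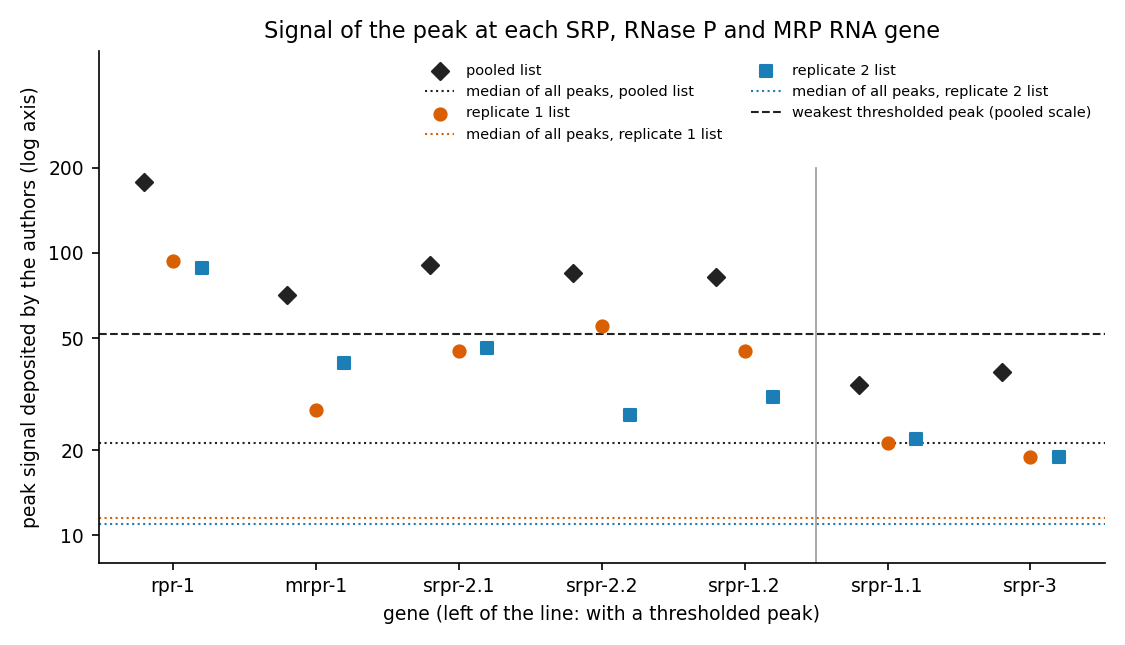
Peak signal on a log axis for the 7 annotated SRP, RNase P and MRP RNA genes in the pooled, replicate 1 and replicate 2 lists, 1 symbol a list, with dotted lines at each list's median and a dashed line at the weakest thresholded peak (51.8). The pooled signal of rpr-1 (178) stands above the other genes, and srpr-1.1 (34.2) and srpr-3 (38.0) lie below the dashed line but above the pooled median (21.3).

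Of the 5 annotated SRP RNA genes, 4 lie on chromosome III and 3 of these had a thresholded peak. The strongest was at srpr-2.1 (ZC155.8, chrIII:5211220-5211518 in ce11, + strand, 299 bp), which lies between genes. Its left neighbour is syx-16, a t-SNARE gene 2111 bp away, and its right neighbour is ZC155.4, a gene for a GP-PDE domain protein 478 bp away. The signal was 44.9 in replicate 1 (rank 128), 46.0 in replicate 2 (rank 102) and 90.8 in the pooled list (rank 100). Both replicates placed it at nearly the same height within their lists, 3.89 and 4.20 times the list median. The summits fell 152 bp after the gene start in replicate 1, 175 bp in replicate 2 and 196 bp in the pooled list. Replicate 2 had a second, weaker summit past the end of the gene, 376 bp after the start, with a signal of 21.3. The nearest other thresholded summit was 83523 bp away, at the tRNA gene T15B12.t1. The sequence of srpr-2.1, read from the RefSeq genome, is shown because its summit lies in a stretch that other SRP RNA genes share. The gene srpr-1.2 is set beside it because it has a thresholded peak of nearly the same signal at a like position. In the first line the capitals mark the pooled summit with 10 bases to each side, and in the second line they mark the 17 bases that differ from srpr-2.1 in a global alignment with 94.3% identity.
srpr-2.1: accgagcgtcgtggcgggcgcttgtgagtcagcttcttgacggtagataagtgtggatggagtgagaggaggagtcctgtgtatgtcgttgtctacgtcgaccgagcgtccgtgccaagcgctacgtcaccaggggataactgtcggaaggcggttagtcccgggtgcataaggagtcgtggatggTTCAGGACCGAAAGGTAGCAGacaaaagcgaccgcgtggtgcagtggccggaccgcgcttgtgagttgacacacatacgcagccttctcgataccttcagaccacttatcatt
srpr-1.2: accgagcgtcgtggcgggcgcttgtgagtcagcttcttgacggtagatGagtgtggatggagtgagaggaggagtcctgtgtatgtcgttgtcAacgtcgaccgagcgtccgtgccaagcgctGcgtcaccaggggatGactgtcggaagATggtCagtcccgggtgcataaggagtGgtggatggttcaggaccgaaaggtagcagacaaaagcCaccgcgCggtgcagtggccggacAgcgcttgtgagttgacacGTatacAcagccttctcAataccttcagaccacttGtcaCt

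The gene srpr-1.2 (B0285.12, chrIII:4369468-4369766, + strand, 299 bp) lies in an intron of ckb-2, a choline kinase gene read in the same direction. The signal was 45.0 in replicate 1 (rank 127), 31.0 in replicate 2 (rank 383) and 82.3 in the pooled list (rank 134). Both replicates had this peak among their strongest 549, at 3.90 and 2.83 times the list median. Its summits were close together, 218 bp after the gene start in replicate 1, 202 bp in replicate 2 and 219 bp in the pooled list. In replicate 1 a second peak had its summit 50 bp before the start (signal 40.7, rank 192). Neither replicate 2 nor the pooled list had that second peak within 1000 bp. The choline kinase genes to each side, ckb-1 and ckb-3, had pooled signals of 20.7 and 17.3 within 500 bp upstream or inside and no thresholded peak.

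The gene srpr-2.2 (R144.15, chrIII:5031410-5031708, − strand, 299 bp) was the one gene of the 5 with a pair of thresholded peaks. It lies in an intron of klp-6, a kinesin gene read in the opposite direction. One summit lay 224 bp after its start (signal 84.8, rank 119) and the other 23 bp after it (signal 75.2, rank 188). In replicate 1 the pair had signals of 55.3 and 53.1 (ranks 58 and 69), with summits 250 and 24 bp after the start. In replicate 2 the signals were 26.7 and 22.5 (ranks 583 and 1001), with summits 210 bp after the start and 14 bp before it. The gene thus had the highest replicate 1 signal of the 3 SRP RNA genes and their lowest in replicate 2, at 4.80 and 2.44 times the list medians. A short non-coding RNA gene of unstated kind, R144.16, overlaps the beginning of srpr-2.2 on the same strand, so the 2 genes cannot be told apart at the summit near the start.

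The remaining SRP RNA genes had weaker peaks. At srpr-1.1 (B0284.6, chrIII:4378909-4379206, − strand, 298 bp) the signal was 21.3 in replicate 1 (rank 1550), 22.0 in replicate 2 (rank 1083) and 34.2 in the pooled list (rank 1837). The summits were at or past the end of the gene, 287 bp after the start in replicate 1, 398 bp in replicate 2 and 316 bp in the pooled list. A second peak near the start had a pooled signal of 19.97, with its summit 24 bp before the start. The gene lies 2 bp from the end of pals-26, and 9222 bp separate it from the thresholded summit at srpr-1.2. The stronger pooled summit and the replicate 2 summit lie inside the protein-coding gene pals-26. The pooled signal of 34.2 is thus also that of pals-26, and the lists cannot assign this peak to either gene. At srpr-3 (F44A2.8, chrV:9293334-9293632, − strand, 299 bp) the signal was 18.9 in replicate 1 (rank 2394), 19.0 in replicate 2 (rank 1778) and 38.0 in the pooled list (rank 1322). Both genes had nearly equal signals in the replicates, each at 1.64 to 2.01 times its list median. The summit of srpr-3 moved by 113 bp between replicates and that of srpr-1.1 by 111 bp, against 8 to 40 bp at the 5 genes with a thresholded peak. At srpr-1.1 the replicate 2 summit lay 101 bp from the gene, so the summits compared may not be of the same peak. The 5 genes were chosen for strong peaks in a list made from both replicates, so nothing is read from this contrast.

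The SRP RNA genes on chromosome III are near-copies, which bears on where a short read can be placed. Genes srpr-2.1 and srpr-2.2 matched at 296 of 299 aligned bases (99.0%) and srpr-1.2 and srpr-1.1 at 294 of 299 (98.3%), while srpr-3 matched the others at 81.7 to 82.5%. The 100 bases upstream were 55.6% identical between srpr-2.1 and srpr-2.2, and 95% identical between srpr-1.2 and srpr-1.1. Of the stretches of 30 bases in a gene, the share found again elsewhere in the genome on either strand was 73.3% for srpr-2.1, 71.9% for srpr-2.2 and 76.3% for srpr-1.2. It was 87.7% for srpr-1.1, 0.37% for srpr-3 and 0 for rpr-1 and mrpr-1. Within 50 bp of the thresholded summit the share was 100% at srpr-2.1, 62.5% at srpr-2.2 and 58.3% at srpr-1.2. At the pooled summit of srpr-1.1, past its end, it was 0. No source used here tells how the authors treated reads that match several places. The signals of these 4 genes are uncertain for that reason, and the part of shared reads in them was not tested. The peaks at rpr-1, mrpr-1 and srpr-3 lie in sequence with no or nearly no such stretch.

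**Figure D2:**
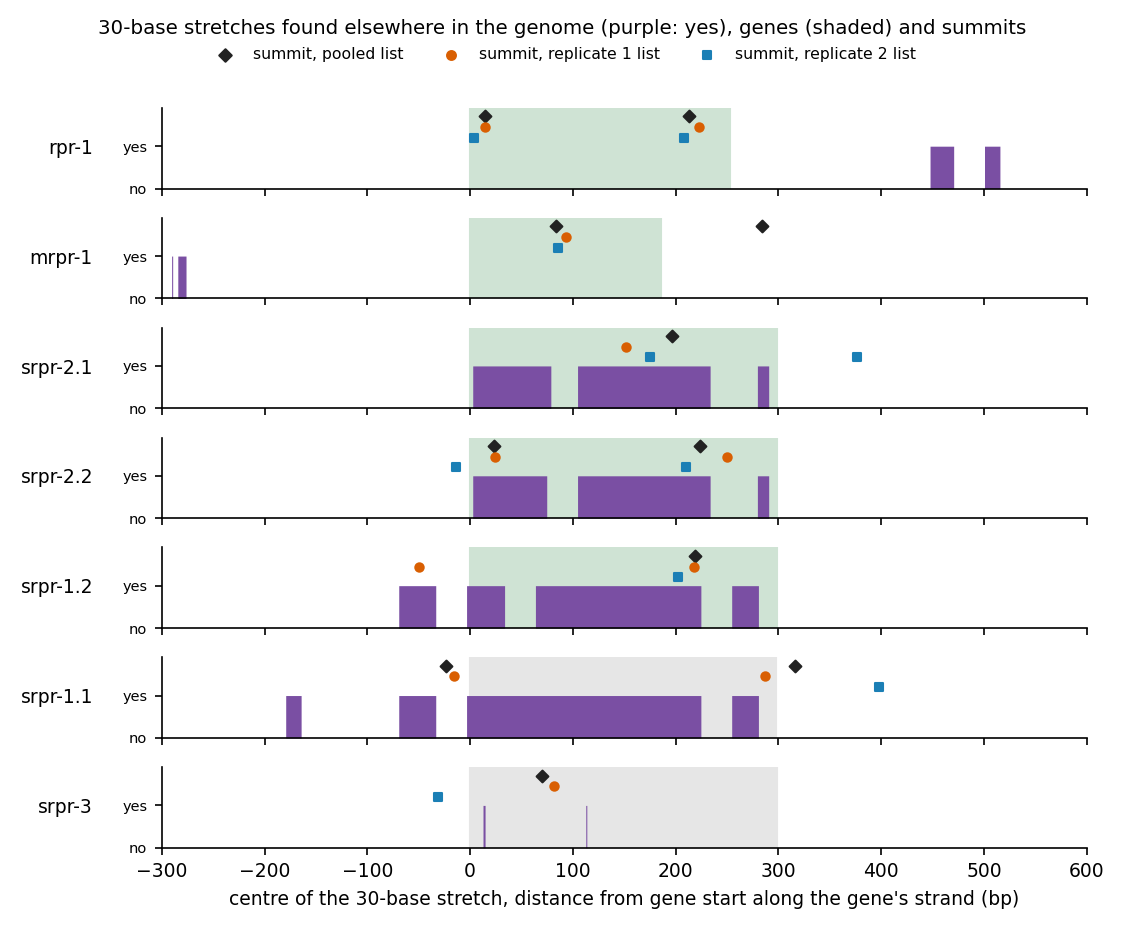
Stretches of 30 bases found elsewhere in the genome (purple) along each of the 7 genes (shaded), by the distance of their centre from the gene start in bp, with the summits of the pooled, replicate 1 and replicate 2 lists above. The 4 SRP RNA genes from srpr-2.1 to srpr-1.1 hold long repeated runs (71.9 to 87.7% of the gene), and rpr-1 and mrpr-1 none within the gene. The stronger pooled summit of srpr-1.1, past the gene's end, lies outside its runs. Its weaker one lies 24 bp before the start, and 54% of the stretches that begin in the 100 bases before the start are repeated.

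The RNase MRP RNA gene mrpr-1 (E04F6.16, chrII:7200233-7200418, + strand, 186 bp) had the lowest pooled signal of the 5. The signal was 27.9 in replicate 1 (rank 625), 40.7 in replicate 2 (rank 156) and 70.9 in the pooled list (rank 221). Here replicate 2 stood higher, at 3.72 times its list median against 2.42 times in replicate 1, the reverse of srpr-2.2. The summits were within 9 bp of each other near the middle of the gene, 93 bp after the start in replicate 1, 85 bp in replicate 2 and 84 bp in the pooled list. A second pooled peak had its summit 284 bp after the start, past the gene (signal 18.2, rank 13004). The gene lies 131 bp before pcrg-1, the worm counterpart of the Parkin coregulated gene, on the same strand. The thresholded peak thus also falls within 500 bp upstream of pcrg-1, and the lists cannot assign it to one of the 2 genes other than by distance. The sequence of mrpr-1 is shown because none of its stretches of 30 bases recurs in the genome, unlike those of the SRP RNA genes; the capitals mark the pooled summit with 10 bases to each side.
mrpr-1: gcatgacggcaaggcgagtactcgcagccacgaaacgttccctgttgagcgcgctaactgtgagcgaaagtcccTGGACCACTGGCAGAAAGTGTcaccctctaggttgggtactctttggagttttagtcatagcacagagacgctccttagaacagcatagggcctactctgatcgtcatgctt

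**Figure D3:**
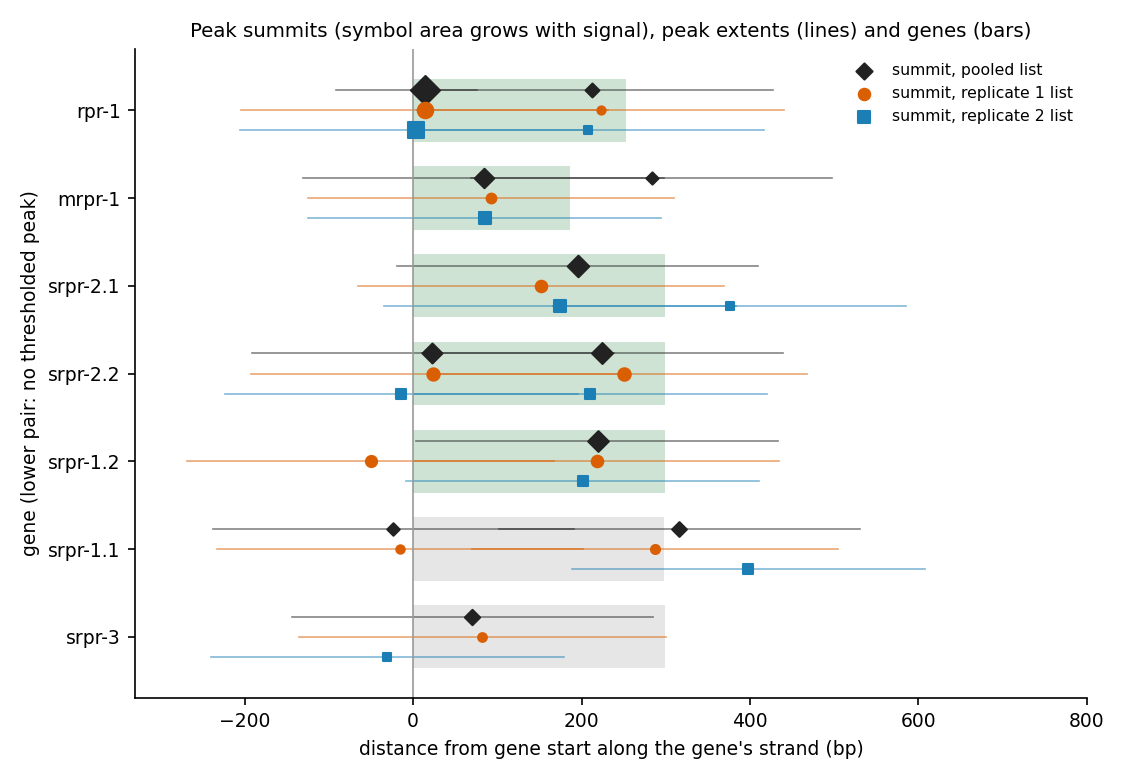
Summits (symbols, area growing with signal) and extents (lines) of all peaks within 1000 bp of each gene (bars) in the pooled, replicate 1 and replicate 2 lists, by distance from the gene start in bp along its strand. The strongest summit of rpr-1 in each list lies 4 to 14 bp after the start, and that of mrpr-1 84 to 93 bp after it. Weaker summits lie 208 to 223 bp after the start of rpr-1 and 284 bp after that of mrpr-1. The strongest pooled summits of the 3 SRP RNA genes with a thresholded peak lie 196 to 224 bp after the start.

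The RNase P RNA gene rpr-1 had the strongest peak of all 7 genes in every list. The signal was 93.6 in replicate 1 (rank 21), 88.4 in replicate 2 (rank 20) and 178 in the pooled list (rank 19). The replicates gave it nearly the same place, at 8.12 and 8.08 times their list medians. The gene (Y48G10A.7, chrI:13463955-13464207, + strand, 253 bp) lies in an intron of ints-8, which encodes a subunit of Integrator, the complex that cuts the 3′ ends of small nuclear RNAs, and is read in the opposite direction. The summit sat at the start of the gene, 14 bp after it in replicate 1 and in the pooled list and 4 bp after it in replicate 2. The pooled peak was 168 bp wide, unlike the usual 430 bp. All 3 lists had a second, weaker summit near the end of the gene. It lay 223 bp after the start in replicate 1 (signal 14.4), 208 bp in replicate 2 (16.6) and 213 bp in the pooled list (28.3, rank 3369). The nearest other thresholded summit was 132769 bp away. The protein-coding genes on each side of ints-8 had no thresholded peak, and ndrr-1 alone had a pooled one (signal 17.9).

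Position of the summit within the gene varied among the 5 genes. The thresholded summit lay 5.53% of the way along rpr-1, 45.2% along mrpr-1, 65.6% along srpr-2.1, 73.2% along srpr-1.2 and 74.9% along srpr-2.2 for its stronger peak. The 196 tRNA genes with a thresholded summit, which polymerase III also reads, had a median distance of 9 bp after the start, with quartiles of −20 and 44.8 bp, and 43.9% of the summits lay inside the gene. The summit of rpr-1 fell between these quartiles, as did the weaker thresholded summit of srpr-2.2, 23 bp after the start. The summits of mrpr-1, srpr-2.1 and srpr-1.2 and the stronger one of srpr-2.2 lay beyond the upper quartile. The tRNA genes are shorter than the 5 genes, so the distances are a description and not a like comparison. The fixed width of the peaks limits how finely any of these positions can be read.

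The 5 genes, chosen for a thresholded peak, were set beside other small RNA genes with one. Of 612 tRNA genes, 196 had a thresholded summit within 200 bp (32.0%, median signal 65.0), of 346 snoRNA genes 61 did (17.6%, median 83.4) and of 129 snRNA genes 10 did (7.75%, median 90.5), where neighbours can share a peak. The median over the 5 genes was 84.8, near that of the snoRNA genes and below that of the snRNA genes. The signal of rpr-1 exceeded that of every tRNA and snRNA gene reached and was exceeded at 3 of the 61 snoRNA genes. By the nearest pooled peak, the snoRNA genes C51F7.4 (258) and ZK994.7 (208) were above it. The signal of mrpr-1, the lowest of the 5, was exceeded at 74 of the 196 tRNA genes and 42 of the 61 snoRNA genes. It was also exceeded at 6 of the 10 genes annotated as snRNA, with sls-2.4, sls-2.1 and sls-2.2 among them. The tRNA genes with the highest signals were C04A11.t1 (158), M02F4.t1 and M02F4.t2 (148 for a shared peak) and F15G9.t1 (142), all on X, while none of the 7 SRP, RNase P and MRP RNA genes is on X. Among 16 genes of 5S rRNA, also read by polymerase III, none had a thresholded summit and 1 had a pooled one (rrn-4.15, signal 17.0). Repeated 5S genes are subject to the same limit on placing reads.

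**Figure D4:**
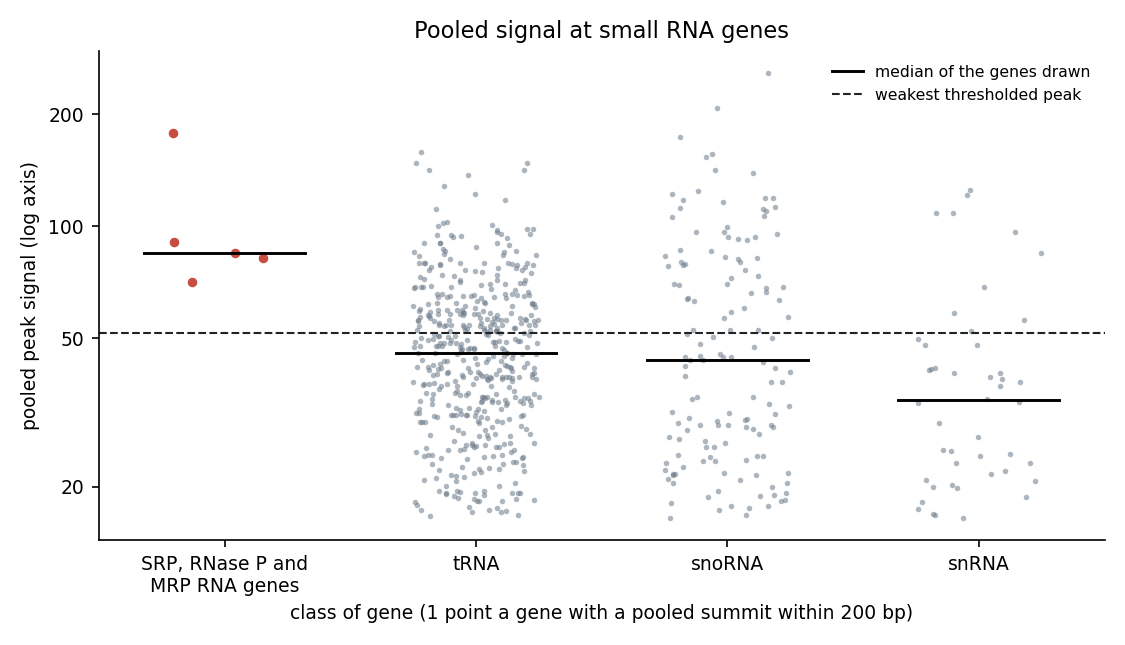
Pooled signal on a log axis for every gene with a pooled summit within 200 bp, by class, 1 point a gene, with the median as a bar and the weakest thresholded peak (51.8) as a dashed line. The 5 SRP, RNase P and MRP RNA genes, chosen for lying above the dashed line, have a median of 84.8, and the medians of the tRNA, snoRNA and snRNA genes with any pooled peak are 45.7, 43.6 and 34.1. The annotated snRNA class includes spliced leader RNA genes.

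The genes with the signals most like those of each of the 5 in both replicates were looked up. Likeness was the distance between log2 signals over the 2 replicates, among 1590 non-coding RNA genes with a summit within 200 bp in the pooled and both replicate lists. The nearest to rpr-1 was the snoRNA gene T03F7.8 with the overlapping non-coding RNA gene T03F7.14 (103 in replicate 1, 73.4 in replicate 2, distance 0.30). The nearest to mrpr-1 were the snoRNA genes C14C10.8 (28.8 in replicate 1, 39.8 in replicate 2) and F59C6.15 (29.7 and 39.5 in the same order). The nearest to srpr-2.1 were the tRNA gene T03G6.t1 (45.2 in replicate 1, 46.2 in replicate 2) and the snoRNA gene C53B7.8 (44.0 and 46.0). The gene srpr-1.2 was nearest to the tRNA gene C38C6.t1 with the overlapping C38C6.9 (46.1 in replicate 1, 31.9 in replicate 2). The gene srpr-2.2, with its unequal replicates, was nearest to the antisense RNA gene anr-20 (53.2 in replicate 1, 30.2 in replicate 2) and the snoRNA gene T27A3.9 (58.6 and 30.1).

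The base composition at the summits was near or above that of the other peaks. Within 50 bp of the thresholded summit, GC content was 61.4% at srpr-2.1, 57.4% at srpr-1.2, 56.4% at srpr-2.2 and at rpr-1, and 51.5% at mrpr-1. The median over the 532 nuclear thresholded summits was 50.5%. The letters GTTCGA, the core of the B box by which tRNA genes are read, were in none of these 5 windows on either strand and in none of the 5 genes, while 17.5% of the nuclear thresholded summits held them. The letters TATAAA were in none of the 5 windows or genes either, against 4.32% of the summits.

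The upstream sequences split the 5 genes in 2 sorts. Searched along the gene's strand in the 100 bases before the start, TATATA and TGTCNGNC occurred together at mrpr-1 and rpr-1 and at none of the SRP RNA genes. In mrpr-1 the first base of TGTCNGNC was at position −57 and that of TATATA at −34, counted from the gene start, and in rpr-1 they were at −55 and −30. The Y RNA gene yrn-1, whose RNA binds the Ro protein, had them at −55 and −30 as well, with a second TATATA further upstream. The 4 SRP RNA genes of chromosome III shared another run, GAAAAACC, that ended at the last base before the gene, with its first base at −8. These letters were chosen after the sequences had been read, so their presence in the 5 genes is a description. Over all 46890 nuclear genes, 5.06% had TATATA in that window, 0.896% had TGTCNGNC, 0.405% had GAAAAACC and 33 genes (0.0704%) had both TATATA and TGTCNGNC. The windows of mrpr-1 and yrn-1 and those of a pair of SRP RNA genes are shown for this contrast, 5′ to 3′ and ending at the base before the gene, with the searched letters in capitals; they are chrII:7200133-7200232, chrIV:7499408-7499507, chrIII:5211120-5211219 and chrIII:4369368-4369467, all on the + strand.
mrpr-1: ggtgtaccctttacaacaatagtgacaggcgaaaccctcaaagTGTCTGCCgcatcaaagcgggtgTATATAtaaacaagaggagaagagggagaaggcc
yrn-1: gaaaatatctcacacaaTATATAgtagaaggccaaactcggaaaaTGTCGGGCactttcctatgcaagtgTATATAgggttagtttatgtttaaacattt
srpr-2.1: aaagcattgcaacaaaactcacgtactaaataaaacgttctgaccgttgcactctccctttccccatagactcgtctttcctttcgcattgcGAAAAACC
srpr-1.2: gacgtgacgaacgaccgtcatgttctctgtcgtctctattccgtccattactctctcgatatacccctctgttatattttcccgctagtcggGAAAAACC

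Some genes with the upstream pair of mrpr-1 had a listed peak and others had none. At yrn-1 itself no summit of the thresholded, pooled or replicate 1 list lay within 200 bp, and replicate 2 had 1 at 33 bp from the gene with a signal of 13.2 (rank 6039). Of the 33 genes with both elements, 18 had them at like distances, TGTCNGNC between −65 and −45 and TATATA between −40 and −20. Of these 18, 5 had a thresholded summit and 11 a pooled one. With mrpr-1 and its RNase P counterpart left out, 3 of 16 (18.8%) had a thresholded summit and 9 of 16 (56.3%) a pooled one. In the same order, 1.8% and 22.8% of all nuclear genes did, or 1.97% and 10.5% of those under 500 bp. Most of the 16 are small RNA genes, whose classes had higher shares than all genes. These were 17.6% and 40.8% for snoRNA genes, 7.75% and 35.7% for snRNA genes and 32.0% and 77.1% for tRNA genes. Nothing about the pair is therefore read from the contrast with all genes. The 16 were picked by letters chosen after the sequences had been read, so no test was made. The 3 were the non-coding RNA gene W01D2.9 (45.4 in replicate 1, 34.3 in replicate 2, 79.1 pooled), mir-2214 (35.2, 26.3 and 62.4 in the same lists) and the snRNA gene M163.13 (19.0, 32.3 and 52.4). The snRNA genes Y9C9A.111 (49.7 pooled) and F54D8.7 (48.0 pooled) were just below the threshold. The snRNA genes F54C8.9 and F54C8.10, with both elements at −55 and −30, had no pooled summit within 200 bp. Signals among genes with this pair thus ran from no listed peak to that of rpr-1.

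**Figure D5:**
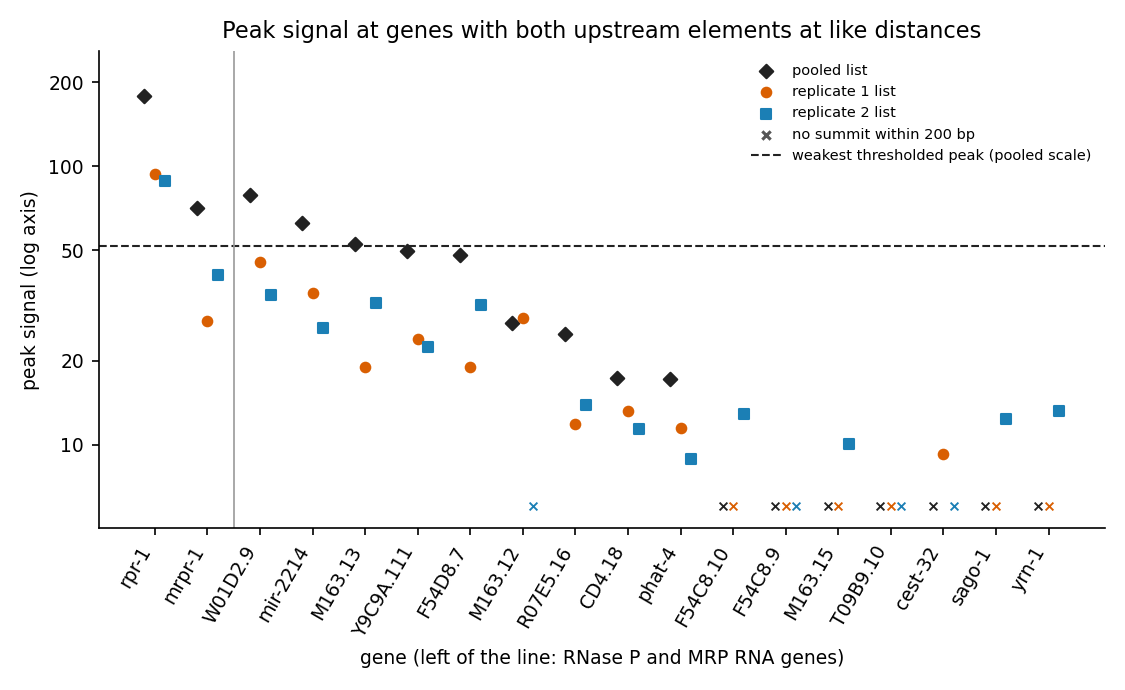
Peak signal on a log axis in the pooled, replicate 1 and replicate 2 lists for the 18 genes with TGTCNGNC and TATATA upstream at like distances, with crosses for no summit within 200 bp and a dashed line at the weakest thresholded peak (51.8). The genes rpr-1 (178 pooled) and mrpr-1 (70.9 pooled) are at the left, W01D2.9, mir-2214 and M163.13 also lie above the dashed line, and 7 genes have no pooled summit.

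A run of 4 T, the letters at which polymerase III stops, began within 30 bases after the end of mrpr-1, srpr-2.1, srpr-2.2 and srpr-1.2 but not of rpr-1. Over all nuclear genes 46.4% had such a run there. Counted from 5 bases before the annotated end, a window chosen after the data were seen, all 5 genes had one, as did 51.2% of all nuclear genes.

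Among the protein genes of the same machinery, thresholded peaks were listed upstream of a pair of genes of the Sec61 channel. Lists set by the words of the annotated products held 33 protein genes, of which 2 (6.06%) had a thresholded summit within 500 bp upstream or inside and 11 (33.3%) a pooled one. Among all 19971 nuclear protein-coding genes, 1.78% had a thresholded summit by this rule and 39.8% a pooled one. Both thresholded genes encode subunits of the Sec61 channel. They were sec-61.B, the beta subunit (pooled signal 73.1, rank 205), and sec-61.G, the gamma subunit (62.8, rank 311). Neither summit lay inside its gene: they were at −457 and −241 bp from the gene start, in that order. No small RNA gene lay within 200 bp of either summit. Among the strongest 549 peaks without replicate 2 the count was 1 gene, and without replicate 1 it was 2. The alpha subunit gene sec-61.A had a pooled signal of 48.1. Of 9 genes whose products are annotated as SRP proteins or receptor, none had a thresholded peak and 3 had a pooled one, among them F37F2.2 for the 19 kDa protein (33.9) and mig-2 (17.5), which is known in worms as a Rac GTPase. None of 6 genes for RNase P and MRP proteins had a peak in the pooled list. Of 13 genes for polymerase III subunits, its regulator MAF1 and its transcription factor TFIIIC, 3 had a pooled peak (C43E11.12 25.3, mafr-1 20.3 and tftc-5 19.4) and none a thresholded one. The La gene ssb-1 and the Ro gene rop-1, whose products bind polymerase III transcripts and misfolded or Y RNA, had pooled signals of 28.4 and 33.0.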

How the data were processed

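ChIP-seq peak lists for 1 group of 2 biological replicates were used in genome build ce11. The authors deposited lists per replicate, from pooled reads and thresholded on the irreproducible discovery rate; peak calling was thus done on each replicate and on the pooled reads, per the deposited list names. The authors gave each peak a signal. They also deposited a −log10 q value for each. The aligner, the peak caller, the scaling and the handling of reads with several matches are not given in the sources used here, sequencing depth is unknown, and ce10 lists were not used.

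Genes and sequence came from the RefSeq annotation and genome of WBcel235, the same assembly. A gene's peak was the one with its summit nearest within 200 bp (the stronger where equally near). Ranks and shares of lower peaks were taken within each list, and ranks from lists of different lengths were not compared. Stretches of 30 bases were matched to the genome on both strands, genes were aligned globally, and promoter windows were 500 bp for protein-coding genes. Peak assignment and matching of stretches were tested on simulated data. The members, gene lists and sequence elements were chosen with earlier results of these data known, so all values are descriptions and no test was made. Named genes are the members, the rest of the family, host and neighbouring genes, up to 4 genes per class by pooled signal and the 2 small RNA genes most alike; others, among them the genes with both upstream elements, were named after their values were seen. The value of 1 gene of the protein lists is not reported here. Alternatives changed the distance, the list, the replicate, the point of the peak and the length of the stretch. Python 3.11.15, numpy 2.4.6, pandas 2.3.3, scipy 1.17.1, Biopython 1.88 and matplotlib 3.10.9 were used.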

Additional observations from a re-analysis of the deposited data

How the results depend on the processing

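The number of the 5 genes with a peak by the rule was 4 or 5 under every alternative tried. Of all 7 annotated genes it was 4 or 5, except in the whole pooled list, where 7 had a peak of any strength. The distance from the gene start of rpr-1 turned from 14 to −8 bp when the midpoint of its narrow peak replaced the summit. Among protein genes of the machinery the count was 2, against 11 in the whole pooled list, 1 without replicate 2 and 2 without replicate 1, the last pair added after the data were seen. Of 15 recomputed distances 5 moved and 1 changed sign. With stretches of 20 or 50 bases the repeated share of the 3 SRP RNA genes moved in 6 of 6 cases, running from 58.8 to 84.3%. It left the exact 95% interval of its value each time, and it stayed 0 at rpr-1 and mrpr-1. The stretches overlap and are not independent, so that interval served only as a mark of change and measures no error. The signal over the list median moved at 9 of 15 values, among them all of those set in the thresholded list, whose median is higher by construction. The mark of a move did not follow the size of the change. At rpr-1 a shift from 8.35 to 8.08 without replicate 1 counted as moved. Larger shifts did not, from 3.33 to 2.42 at mrpr-1 without replicate 2 and from 3.98 to 2.44 at srpr-2.2 without replicate 1. A value not counted as moved is thus not shown to be stable. Depth is unknown and 2 replicates give no error beyond their difference, so a gene without a listed peak is one not listed, and not one shown to be unbound.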
